A study of Ciona robusta with 133 samples.

Results

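Brachyury was followed as gene model KH.S1404.1, 1 of 15287 gene models in the count table, through single cells of early embryos of the ascidian Ciona robusta. The gene was chosen by its identifier, not by a measured value, though with earlier results of these data known. The cells of the notochord path (A7.3, A8.5 and A9.9+A9.10) were set against all other cell types. Cells were dissected by hand from embryos of 16, 32, 64 and 112 cells and from neural plate embryos, and no treatment or genotype is named for any group. The 133 libraries cover 19 cell types from 2 lineages, the anterior vegetal A line and the anterior animal a line. Each library is labelled with its embryo and its side or column in the embryo. The unit of replication was the embryo (n): counts of libraries sharing a cell type and an embryo were added, leaving 87 embryo samples. Neural plate groups are labelled with 2 cell names each, and which one was sequenced in a given library is not stated in the labels.

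Brachyury is a T-box transcription factor and the master regulator of notochord fate in ascidians, where it switches on the genes by which notochord cells intercalate, form a rod and build a sheath. In Ciona its own activation is known to need the transcription factors Zic-r.b, Foxa.a and Foxd together with FGF signalling through ERK. The cell A6.2 divides into the notochord precursor A7.3 and the nerve cord precursor A7.4, in which an ephrin signal from the neighbouring animal cells dampens ERK. A8.5 is a daughter of A7.3, and A9.9 and A9.10 are daughters of A8.5. A8.7 descends from A7.4 and gives A9.13 and A9.14. A7.2 forms endoderm. In the a line, a7.10 and its descendants a8.19 and a9.37+a9.38 come from the neural-fated cell a6.5, whereas a7.11 leads to a8.22 and then a9.43+a9.44 on the epidermal side. The files and the reference table do not pair KH identifiers with these gene names, so the upstream regulators and the targets of Brachyury were not analysed here, and no sequence of the gene was printed.

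The libraries held 1452103 to 16599891 counts (median 7546701), and the lowest 2 totals were both in A9.9+A9.10. Levels are given as CPM, the usual scaling of a read count by the total of its library or embryo sum. A CPM is a share of the reads of a cell, so a change in Brachyury RNA and a change in all other RNA of the cell cannot be told apart. A count of 0 is given with the level that 3 counts would have had. Between 9667 and 11726 genes were detected in a library (median 10745), except in the left A6.1 cell of embryo 5 (7137 genes). That cell had no Brachyury count, like all other A6.1 cells, and enters no test.

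Brachyury counts were present in every library of the notochord path and nearly confined to it. All 20 notochord-path libraries held counts, against 15 of the 113 other libraries. Of those 113, 46 were of the 16- and 32-cell stages. From 64 cells on, 15 of 67 other libraries held counts, and at the neural plate 8 of 18 did. Of 27731 Brachyury counts in the table, 27205 (98.1%) came from the notochord path. The lowest notochord-path library stood at 50.6 CPM and the highest library of any other cell type at 26.3 CPM, so the libraries did not overlap, even across stages. By cell type, the mean was highest in A9.9+A9.10, then in A8.5, A7.3 and A9.13+A9.14. Each of the first 3 types in this order lay wholly above the next one in its embryos, while A9.13+A9.14 and a8.19, the next below it, overlapped. The share of all genes that separate the pooled path from all other libraries, or A7.3 from A9.13+A9.14, was not computed. Such shares are given below for A-line pairs within a stage, for the mean of the other types and for the steps.

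**Figure D1:**
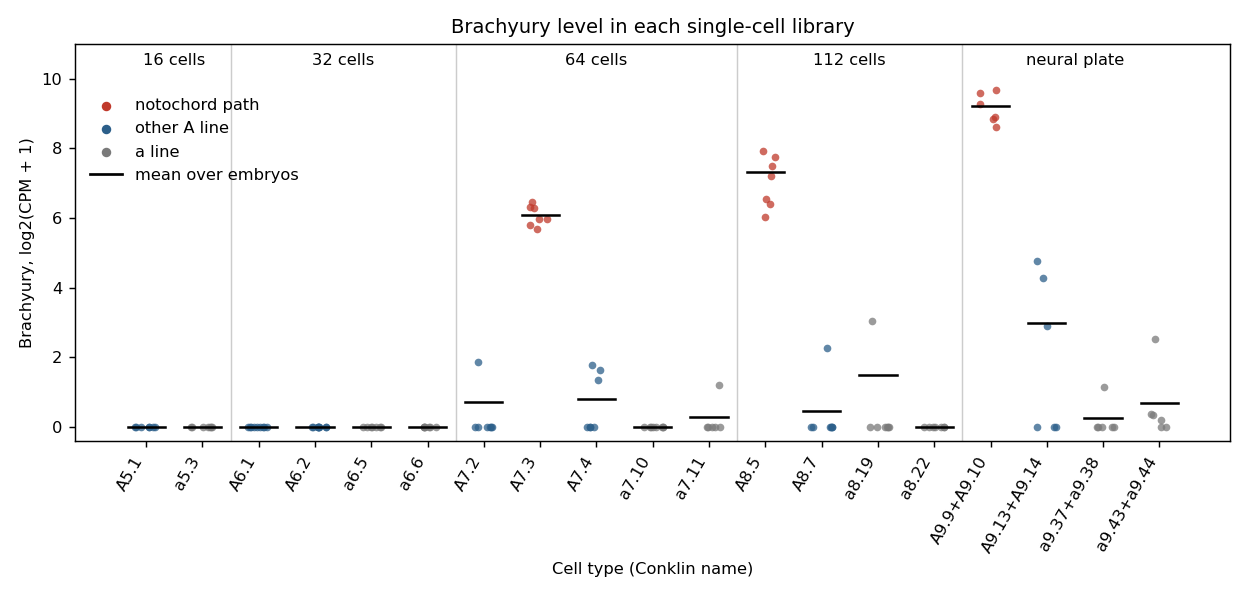
Brachyury level, log2(CPM + 1), in each of 133 libraries (points) for 19 cell types ordered by stage; black bars mark the log2 of the mean over embryos. The 20 libraries of the notochord path (red) lie above all 113 other libraries, and the 46 libraries of the 16- and 32-cell stages lie at 0.

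No Brachyury read was counted before the 64-cell stage. All 46 libraries of the 16- and 32-cell stages held 0 counts, in a combined total of 387699884 counts, which allows a level of up to 0.00774 CPM over these libraries together. For single libraries of these stages the limit was 0.195 to 0.869 CPM. A6.2, the mother cell of A7.3, held 0 counts in 9 libraries from 6 embryos, which allows up to 0.0507 CPM over the group.

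At the 64-cell stage the notochord precursor A7.3 carried Brachyury in all 4 embryos. Its level was 54.6 CPM in embryo 2, 77.0 CPM in embryo 3, 61.4 CPM in embryo 4 and 77.9 CPM in embryo 5, with a mean of 67.7 ± 11.6 CPM (SD, n = 4). The embryos therefore lay within 1.43-fold of each other. From A6.2 to A7.3 Brachyury rose at least 1334-fold, its mean being set against the limit of 3 counts over A6.2 (edgeR's quasi-likelihood test, adjusted p = 7.8e-06, n = 6 and 4). All A7.3 embryos stood above all A6.2 embryos, as was the case for 2.89% of the 13133 genes tested, and 0.914% of these genes were called higher in A7.3. Stage and collection cannot be told apart in this and the other steps between stages.

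The sister cell A7.4 held few Brachyury reads. Its level was 0 in embryos 2 and 3, 1.98 CPM in embryo 4 and 1.07 CPM in embryo 5, a mean of 0.762 ± 0.955 CPM (SD, n = 4). The 47 counts came from 3 of 7 libraries, both sides of embryo 4 and the left side of embryo 5. Within embryos, A7.3 stood 31.0-fold above A7.4 in embryo 4 and 72.8-fold in embryo 5, and at least 119-fold in embryo 2 and 310-fold in embryo 3, where A7.4 had no count. A7.3 was thus the higher sister in 4 of 4 embryos, and the lowest A7.3 embryo lay above the highest A7.4 embryo, a separation found for 0.927% of 11645 genes.

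The genome-wide test did not call this difference between the sisters. The log2 fold change of A7.3 over A7.4 was 6.40 ± 1.89 (SE), with a p of 0.00278 before adjustment and an adjusted p of 0.793 by edgeR over 11645 genes. Brachyury ranked 36th by p in that comparison, in which 0% of genes were called higher in A7.3 by edgeR and 141 genes were higher at an unadjusted p below 0.05. In either direction edgeR called 1 gene, DESeq2 39 and limma voom 15. Calls differed between methods for this pair. Limma voom gave an adjusted p of 4.6e-05, DESeq2 gave 1, and an exact two-sided permutation test of Brachyury alone gave p = 0.0286, the smallest that 4 embryos against 4 allow (0.0381 adjusted over 16 such tests). That test takes the groups as independent, whereas A7.3 and A7.4 came from the same embryos. With labels exchanged within embryos, an alternative added after the data had been seen, the exact permutation p was 0.125, the smallest that 4 pairs allow.

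A7.2, the endoderm precursor, showed the same picture with a single exception. Its level was 0 in embryos 3, 4 and 5, and 2.64 CPM in embryo 2, where 23 counts lay in the left library. A7.3 stood 20.6-fold above A7.2 in embryo 2 and at least 288-fold in the other embryos. The log2 fold change was 6.74 ± 1.93 (SE), with an adjusted p of 0.342 by edgeR, where 0.00859% of genes were called higher in A7.3 and 1.97% did not overlap between the groups. Without embryo 2 of A7.2 that group held no count, and the adjusted p was 0.123. The exact permutation test of the gene alone gave p = 0.0286 with the groups taken as independent and p = 0.125 within embryos, each the smallest possible.

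Against the a line at 64 cells, Brachyury was higher in A7.3 by the genome-wide test. At this and later stages A-line and a-line cells were taken as coming from different embryos, even where embryo numbers match. Lineage and collection therefore cannot be told apart in comparisons that involve the a line. The a7.10 cells, on the neural side, held 0 counts in 8 libraries from 8 embryos, so A7.3 stood at least 1440.2-fold higher (edgeR, adjusted p = 0.000196; 8.36% of genes were called higher). The epidermal a7.11 held 11 counts, all in embryo 6, and had a mean of 0.216 ± 0.529 CPM (SD, n = 6). There the log2 fold change was 8.27 ± 1.74 (SE; edgeR, adjusted p = 0.00388; 6.55% called higher), and without embryo 6 the a7.11 group held no count. Against the mean of the other 4 cell types of the stage the log2 fold change was 8.48 ± 1.11 (SE; edgeR, adjusted p = 0.000208). The a7.10 group in that mean had 0 counts, so the data do not fix the size of this value. As a ratio of mean CPM, A7.3 stood 213-fold above the 22 other embryo samples. Without A7.2 embryo 2 the log2 fold change was 9.93, with A7.2 at 0 counts as well. In that comparison 1.68% of genes were called higher in A7.3, 0.155% lay above all 22 other embryo samples in every A7.3 embryo, and Brachyury ranked 8th by p.

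At the 112-cell stage A8.5, a daughter of A7.3, carried Brachyury in all 5 embryos, with a wider spread. The level was 78.9 CPM in embryo 2, 179 CPM in embryo 3, 241 CPM in embryo 5, 147 CPM in embryo 6 and 151 CPM in embryo 7. Its mean of 159 ± 58.8 CPM (SD, n = 5) was 2.35 times that of A7.3, and the lowest A8.5 embryo (78.9 CPM) lay just above the highest A7.3 embryo (77.9 CPM). For the step from A7.3 to A8.5 the log2 fold change was 1.24 ± 0.71 (SE), which did not pass the test (edgeR, adjusted p = 0.349; 0.952% of genes were called higher and 2.83% did not overlap). The exact permutation test of the gene alone, added after the data had been seen, gave p = 0.0159, the smallest possible for 5 against 4 embryos.

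A8.7, on the nerve cord side, held Brachyury in 1 of 5 embryos. The level was 1.85 CPM in embryo 2, from 25 counts in the right library, and 0 in embryos 3, 5, 6 and 7, which gave a mean of 0.369 ± 0.826 CPM (SD, n = 5). Within embryo 2, A8.5 stood 42.7-fold above A8.7. In the other embryos it stood at least 417-fold to at least 800.4-fold above. Brachyury was higher in A8.5 with a log2 fold change of 8.58 ± 1.68 (SE; edgeR, adjusted p = 0.0341), in a comparison where 0.185% of genes were called higher and 0.856% did not overlap. This call was close to the threshold. It was lost in 9 of 10 fits without 1 embryo, with an adjusted p of 0.0538 (without A8.5 embryo 2) to 0.103 (without A8.5 embryo 5), and was kept without A8.7 embryo 2, which left A8.7 with no count (adjusted p = 0.0340). With labels exchanged within the 5 embryos, the exact permutation p was 0.0625, the smallest possible.

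In the a line at 112 cells, Brachyury counts were found in 1 library. The epidermal a8.22 had 0 counts in 7 libraries from 4 embryos, so A8.5 stood at least 3207-fold higher (edgeR, adjusted p = 0.00684; 0.715% of genes were called higher). The neural-side a8.19 had 81 counts in the right library of embryo 4, at 7.26 CPM, and 0 counts in the other 6 libraries, with a mean over embryos of 1.82 ± 3.63 CPM (SD, n = 4). Against a8.19 the log2 fold change was 6.49 ± 1.67 (SE), which missed the threshold (edgeR, adjusted p = 0.0700; 0.582% called higher). Without embryo 4 of a8.19 that group had no count and the adjusted p was 0.00547. Against the mean of the other 3 cell types the log2 fold change was 9.68 ± 1.22 (SE; edgeR, adjusted p = 0.000277). The a8.22 group in that mean had 0 counts, so the data do not fix the size of this value. As a ratio of mean CPM, A8.5 stood 227-fold above the 13 other embryo samples. Without a8.19 embryo 4 the log2 fold change was 12.2 and without A8.7 embryo 2 it was 11.5. Each of these fits left 1 more group at 0 counts. In this comparison 0.962% of genes were called higher in A8.5 and 0.353% did not overlap with any other embryo of the stage.

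**Figure D2:**
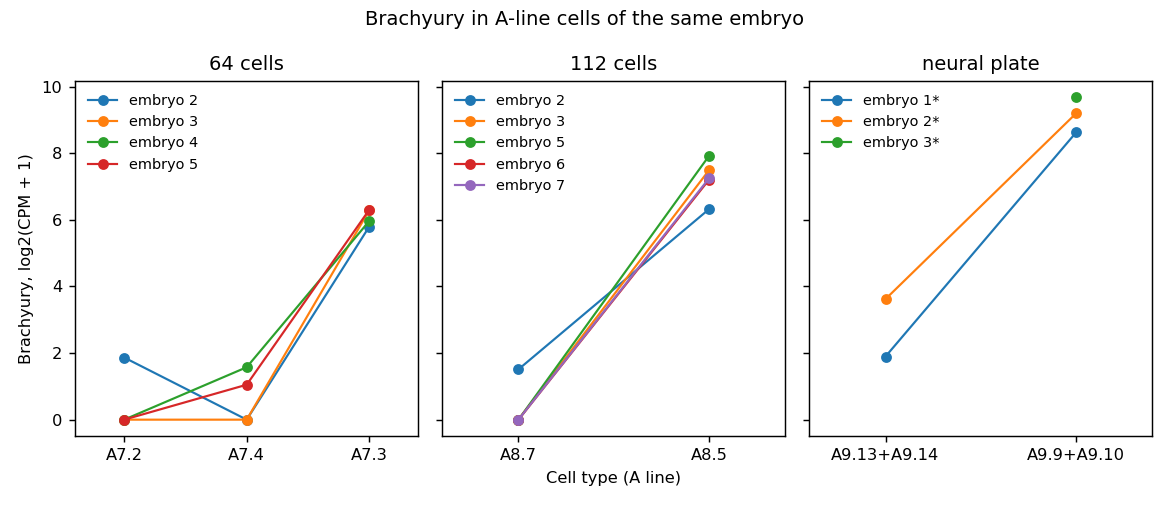
Brachyury level, log2(CPM + 1), in A-line cells, with a line joining the cell types of 1 embryo (left, 64 cells; middle, 112 cells; right, neural plate). The notochord-path cell is the highest in each embryo of which a second cell type was collected; embryo 3* gave A9.9+A9.10 alone.

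At the neural plate stage A9.9+A9.10 had the highest Brachyury level of the series. Embryo 1* stood at 394 CPM, embryo 2* at 586 CPM and embryo 3* at 819.4 CPM, a mean of 599.5 ± 213 CPM (SD, n = 3). The mean was 3.76 times that of A8.5 and 8.85 times that of A7.3, and every A9.9+A9.10 embryo lay above every A8.5 embryo. For the step from A8.5 the log2 fold change was 1.97 ± 0.74 (SE), which did not pass (edgeR, adjusted p = 0.0870; 6.57% of genes were called higher and 7.77% did not overlap). Limma voom called this step (adjusted p = 6.8e-06), and the exact permutation test of the gene alone, added after the data had been seen, gave p = 0.0357, the smallest possible.

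A9.13+A9.14, the nerve cord cells of the neural plate, held more Brachyury reads than any other cell type outside the notochord path. Embryo 1* stood at 2.72 CPM and embryo 2* at 11.3 CPM (mean 7.005 ± 6.06 CPM, SD, n = 2). The reads were not spread over all cells. The left column1 library of embryo 1* had 6.44 CPM, the left column1 library of embryo 2* had 26.3 CPM and the right column2 library of embryo 2* had 18.3 CPM, while the other 3 libraries had no count. A9.9+A9.10 stood 145-fold above A9.13+A9.14 within embryo 1* and 51.9-fold within embryo 2*.

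Brachyury was higher in A9.9+A9.10 than in A9.13+A9.14 with a log2 fold change of 6.40 ± 1.01 (SE; edgeR, adjusted p = 0.0229), where 0.11% of genes were called higher and 7.44% did not overlap. The call was lost when embryo 1* or embryo 2* of A9.13+A9.14 was left out (adjusted p = 0.325 and 0.108), and when embryo 3* of A9.9+A9.10 was left out (0.0602). The exact permutation test has no power here, since 3 embryos against 2 cannot give a p below 0.2.

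In the a-line cells of the neural plate Brachyury stayed low. The a9.37+a9.38 group held 5 counts in 1 library of embryo 1 and had a mean of 0.206 ± 0.357 CPM (SD, n = 3). The epidermal a9.43+a9.44 group held 36 counts, of which 31 lay in the right column1 library of embryo 1, and had a mean of 0.601 ± 0.94 CPM (SD, n = 3). Brachyury was higher in A9.9+A9.10 than in both, with a log2 fold change of 11.16 ± 1.13 (SE; edgeR, adjusted p = 0.000541; 0.271% called higher) over a9.37+a9.38. Over a9.43+a9.44 it was 9.50 ± 0.99 (SE; edgeR, adjusted p = 0.000331; 0.609% called higher). Without embryo 1 of a9.37+a9.38 that group held no count, and without embryo 1 of a9.43+a9.44 the latter value was 12.8. Against the mean of the other 3 cell types the log2 fold change was 9.02 ± 0.68 (SE; edgeR, adjusted p = 4.7e-05), with Brachyury 4th by p. Without a9.37+a9.38 embryo 1 it was 10.53, with that group at 0 counts, and without a9.43+a9.44 embryo 1 it was 10.13. Of the genes tested, 0.643% were called higher and 1.43% did not overlap.

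**Figure D3:**
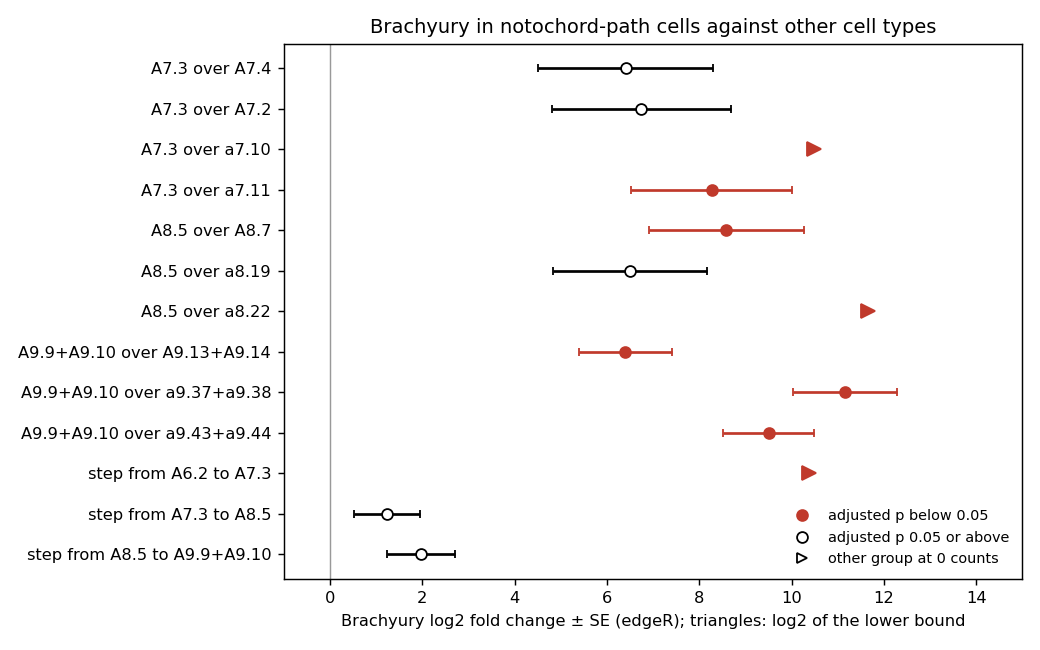
Brachyury log2 fold change ± SE from edgeR for the comparisons of cell types within a stage and for 3 steps along the notochord path; filled red symbols have an adjusted p below 0.05, and triangles mark the log2 of a lower bound where the other group had 0 counts. All lie above 0, and A7.3 over A7.4, A7.3 over A7.2, A8.5 over a8.19, and the steps from A7.3 and from A8.5 did not pass.

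The excess of the notochord cell over the nerve cord cell was compared between stages. From 64 to 112 cells the log2 fold change grew by 2.21 ± 1.21 (SE; edgeR, adjusted p = 0.844; 0.00761% of genes were called in either direction). From 112 cells to the neural plate it dropped by 2.12 ± 1.26 (SE; edgeR, adjusted p = 0.837; 0.0152% called). Neither change passed. Without A8.7 embryo 2, the only A8.7 embryo with counts, the fitted values were 7.51 and -7.40. With A8.7 at 0 counts the data do not fix the size of these values. The first change was 1.26 without A7.4 embryo 4, and the second was -0.64 without A9.13+A9.14 embryo 2.

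On the notochord path, cells of 1 type from 1 embryo differed in Brachyury level by up to 2.57-fold. In A7.3 the left and right cells stood at 61.4 and 61.3 CPM in embryo 4 and at 76.8 and 79.1 CPM in embryo 5, while in embryo 3 the left cell had 50.6 CPM and the right cell 87.3 CPM. In A8.5 the left cell had 63.9 CPM and the right 92.6 CPM in embryo 2, and the left had 83.6 CPM and the right 215 CPM in embryo 7. The right cell was higher in both A8.5 embryos, and the side was not tested with so few embryos.

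In embryo 2* all 4 A9.9+A9.10 positions were collected. The column2 cells stood at 616 CPM on the left and 771 CPM on the right, and the column1 cells at 460 CPM on the left and 479 CPM on the right. Both column2 cells were above both column1 cells. The total counts were 6758090 (left) and 1452103 (right) in column2, and 2361433 (left) and 1689704 (right) in column1. Within each column the library with the lower total had the higher level. The totals per embryo were 16599891 counts in embryo 1*, 12261330 in embryo 2* and 3323309 in embryo 3*, in the reverse order of the levels. The embryo 2* total is a sum of 4 libraries, however, and embryos 1* and 3* gave 1 library each. Library by library this order did not hold. The right column2 library and both column1 libraries of embryo 2* had lower totals than the embryo 3* library, and lower levels as well. The left column2 library of embryo 2* and the embryo 1* library had higher totals and lower levels. The order of columns rests on 1 embryo, and neither position nor depth was tested. The A9.9+A9.10 cells of embryos 1* and 3* both came from left column2.

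The 6 gene models most like Brachyury were taken from 10830 others whose mean reached 5 CPM in at least 1 cell type. Likeness was the Pearson r of log2(mean CPM + 1) over the 19 cell types, and it was 0.93 for KH.C12.179, 0.925 for KH.S1735.4, 0.923 for KH.C1.10, 0.918 for KH.L128.12, 0.905 for KH.C12.487 and 0.904 for KH.C1.14. The median r of all these gene models was -0.0333, and 22 reached 0.8. The cell types share embryos and stages, so these values are descriptions. The files do not name these gene models. KH.S1735.4 and KH.C1.14 were low and uneven between embryos even where highest. KH.S1735.4 stood at 11.5 ± 11.4 CPM in A9.9+A9.10 (SD, n = 3, range 0 to 22.8 CPM). KH.C1.14 stood at 13.1 ± 21.5 CPM in A8.5 (SD, n = 5, range 0 to 50.5 CPM).

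Only part of this likeness held when the 87 embryo samples were taken singly. That r still runs across all cell types. Whether the genes vary together between embryos of 1 cell type was not tested. Over the 87 embryo samples KH.L128.12 had an r of 0.927, KH.C12.487 of 0.884 and KH.C12.179 of 0.794, which placed them 1st to 3rd of the same gene models. KH.S1735.4 fell to 37th place (r = 0.605), KH.C1.10 to 47th (r = 0.585) and KH.C1.14 to 73rd (r = 0.525). In rank terms none of the 6 stayed among the first 6, with a Spearman rho of 0.50 to 0.78.

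KH.L128.12 was the closest over the 87 embryo samples and parted from Brachyury in the nerve cord cells of the neural plate. It stood at 39.0 ± 13.5 CPM in A7.3, 73.1 ± 24.3 CPM in A8.5 and 77.4 ± 32.9 CPM in A9.9+A9.10 (SD, n = 4, 5 and 3). It had no count in A6.2 and A7.4 and 0.222 ± 0.496 CPM in A8.7. In A9.13+A9.14, however, it stood at 66.2 ± 2.54 CPM (SD, n = 2), within the range of A9.9+A9.10, while Brachyury there was 85.6-fold lower than in A9.9+A9.10.

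KH.C12.487 was highest in the notochord path at each stage from 64 cells on, which its choice by likeness to Brachyury favours. Its mean was 0.218 ± 0.435 CPM in A6.2, 74.1 ± 27.2 CPM in A7.3, 98.2 ± 54.6 CPM in A8.5 and 212 ± 57.7 CPM in A9.9+A9.10. The nerve cord cells had 0.271 ± 0.363 CPM in A7.4, 3.84 ± 5.24 CPM in A8.7 and 16.7 ± 23.7 CPM in A9.13+A9.14. In a9.37+a9.38 it had a mean of 9.17 ± 10.8 CPM (SD, n = 3), and in a8.22 of 4.81 ± 9.58 CPM (SD, n = 4). Brachyury had a mean of 0.206 CPM and no count there. These means of KH.C12.487 came from few libraries. In a9.37+a9.38 they stood at 34.9 and 12.8 CPM and all others at 0. In a8.22, 1 library of embryo 4 had 19.2 CPM and all others at most 0.121 CPM. Brachyury likewise had 1 a8.19 library at 7.26 CPM. KH.C12.179 was detectable at every stage, at 6.81 ± 2.10 CPM in A6.2. Its A6.2 embryos (4.55 to 9.83 CPM) overlapped with its A7.3 embryos (6.24 to 19.5 CPM). It had 11.6 ± 5.70 CPM in A7.3, 54.9 ± 29.6 CPM in A8.5 and 122 ± 49.5 CPM in A9.9+A9.10.

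**Figure D4:**
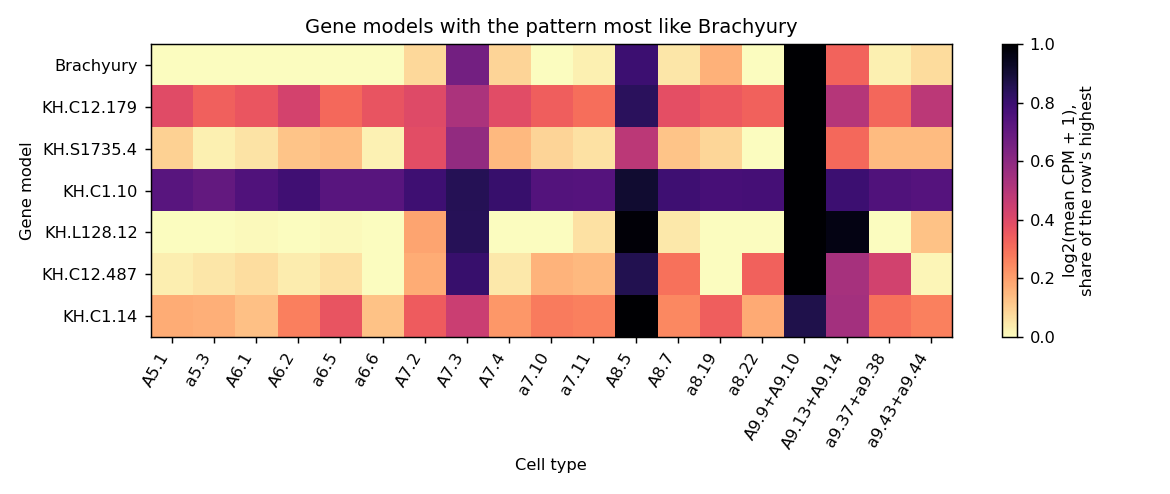
Mean level over embryos, log2(CPM + 1) as a share of each row's highest value, for Brachyury and the 6 gene models most like it over 19 cell types. KH.L128.12 is nearly as high in A9.13+A9.14 as in A9.9+A9.10, and KH.C1.10 is present in every cell type.

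The 15 libraries with Brachyury counts outside the notochord path were set beside these gene models. In A9.13+A9.14, KH.C12.487 stood at 0 to 43.2 CPM in the 3 libraries with Brachyury counts and at 0 to 36.5 CPM in the 3 without, so the libraries were not separated by it. Its zeros were those of embryo 1*. The library with 168 Brachyury counts was the highest of its type in KH.C12.487, KH.C12.179 (26.0 CPM), KH.S1735.4 (4.54 CPM) and KH.L128.12 (83.8 CPM). It was not the highest in KH.C1.10 (97.6 CPM) or KH.C1.14 (0 CPM). The a8.19 library with 81 Brachyury counts had 0 CPM of both KH.C12.487 and KH.L128.12. The A7.2 library with 23 counts had 0 CPM of KH.C12.487 and 0.345 CPM of KH.L128.12. The A8.7 library with 25 counts had 6.22 CPM of KH.C12.487, within the 0 to 12.7 CPM of the other A8.7 libraries, and 2.28 CPM of KH.L128.12, which no other A8.7 library held. The a7.11 library with 11 counts was likewise the only one of its type with KH.L128.12 (1.77 CPM), and was above the other a7.11 libraries in KH.C12.487 (0 to 1.74 CPM there). The 3 A7.4 libraries with counts had no KH.L128.12 and at most 0.603 CPM of KH.C12.487. The 4 a9.43+a9.44 libraries had no KH.C12.487 and 0 to 2.43 CPM of KH.L128.12. The a9.37+a9.38 library had 12.8 CPM of KH.C12.487, within the 0 to 34.9 CPM of the others of its type, and no KH.L128.12. The source of the counts outside the path was not tested.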

How the data were processed

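Hand-isolated single cells were amplified with a template-switching kit, tagmented and read as 75 bp single ends, per the labels' protocols. The authors deposited whole-number read counts per gene, not normalized. The submitters' processing notes name STAR 2.7.10a as a tool. For the build, annotation, counter and strand setting, the sources used here give nothing, so reads of related T-box genes or overlapping genes may be shared. All 133 columns were matched to samples by name, and 0 were left without one. The labels do not say whether the embryos came from separate parents, so p-values measure the spread between these embryos. Reads have no molecular identifiers, so limits of 3 counts cover counting error only. No 2 libraries of a type agreed within sampling noise (lowest mean chi-square per gene 12.6).

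Counts were summed per embryo and cell type. edgeR 4.0.16 (R 4.3.3; TMM factors, its filter at a minimum count of 10, robust quasi-likelihood test) was fitted over all cell types of a stage, and over A6.2 and the notochord and nerve cord cells for steps between stages. P-values were adjusted over all genes tested (Benjamini-Hochberg, threshold 0.05), and SE were taken from the F statistic. The fits were also run on simulated counts with known changes. That run did not model a gene with counts in single libraries only, so it does not bear on calls that differ between tools. Alternatives were RLE factors, library totals, no filter, DESeq2 1.42.0, limma 3.58.1 voom, fits of 2 groups, the embryo as a block, leaving out each embryo, and an exact two-sided permutation test of log2(CPM + 1) for this gene alone, over embryos and, added later, within embryos. A-line cells of 1 stage are paired by the embryo named in their labels; residuals of same-embryo samples correlated with a mean r of 0.259 (A7.3 and A7.4), 0.271 (A7.3 and A7.2), 0.112 (A8.5 and A8.7) and 0.085 (A9.9+A9.10 and A9.13+A9.14). Genes named for likeness were the 6 with the highest r over 19 cell types. The gene, the comparisons and these rules were chosen with earlier results of these data known.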

Additional observations from a re-analysis of the deposited data

Results flagged for a closer look

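Of 15 cell types with 4 to 8 embryos, 4 had 1 embryo whose Brachyury level stood apart from all others of its type. In each case it was the only embryo of the type with a count: A7.2 of embryo 2 at 2.64 CPM (n = 4), a7.11 of embryo 6 at 1.30 CPM (n = 6), A8.7 of embryo 2 at 1.85 CPM (n = 5) and a8.19 of embryo 4 at 7.26 CPM (n = 4). In 8 of the 15 types no embryo had a count. The criterion used marks about 1 in 20 groups of normally distributed values by chance. That rate does not carry over here, because a type with counts in a single embryo is always marked and a type with no count never is.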

How the results depend on the processing

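All 324 refits and tests of the 18 Brachyury contrasts kept the direction, and 293 kept the call. With RLE factors or library totals alone no call changed. Limma voom called A7.3 over A7.4 (log2 fold change 7.82), A7.3 over A7.2 (9.70), A8.5 over a8.19 (10.1) and the step from A8.5 to A9.9+A9.10 (1.90). Without the filter on low counts A8.5 over A8.7 (8.58, adjusted p = 0.0815) and A9.9+A9.10 over A9.13+A9.14 (6.39, 0.0601) were not called; DESeq2 did not call the first (8.77, 0.0659), nor a fit of 2 groups the second (6.40, 0.143). The exact permutation test of the difference in mean log2(CPM + 1) passed for A7.3 over A7.4 (5.43), A7.3 over A7.2 (5.62), A8.5 over a8.19 (6.48) and the steps from A7.3 to A8.5 (1.15) and from A8.5 to A9.9+A9.10 (1.93). The exact permutation test could not pass at the neural plate stage for A9.13+A9.14 (6.41, p = 0.2), a9.37+a9.38 (8.94, p = 0.1) and a9.43+a9.44 (8.64, p = 0.1). The cause of the differences between tools was not tested.

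Without 1 embryo the log2 fold change ranged from 8.23 to 13.9 for A8.5 over A8.7, from 5.77 to 7.85 for A9.9+A9.10 over A9.13+A9.14 and from 6.04 to 14.0 for A8.5 over a8.19. With the embryo as a replicate block, for cells paired by embryo, the adjusted p was 0.914 for A7.3 over A7.4 (log2 fold change 6.83), 0.259 for A7.3 over A7.2 (8.66), 0.0369 for A8.5 over A8.7 (10.3) and 0.00657 for A9.9+A9.10 over A9.13+A9.14 (6.34); it changed no call. The exact permutation test within embryos, added after the data had been seen, could not pass for any of these pairs, with p = 0.0625 for A8.5 over A8.7 (mean log2 difference 6.94) and p = 0.5 for A9.9+A9.10 over A9.13+A9.14 (6.15). The mean level of A7.3, A8.5 and A9.9+A9.10 moved by less than the SD over embryos with TMM-scaled totals, over single libraries or without 1 embryo. Depth limits the zeros: levels under the limit of 3 counts cannot be told from absence.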
